A study of Homo sapiens with 3 samples.

Results

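The BCL2 family holds the proteins that keep or break the outer mitochondrial membrane during apoptosis. Its anti-apoptotic proteins, such as BCL2, BCL2L1 (also called BCL-XL) and MCL1, bind and restrain the effectors BAX and BAK1, which otherwise assemble into pores that release cytochrome c. The BH3-only proteins BBC3 (PUMA), PMAIP1 (NOXA), BCL2L11 (BIM), BID and BAD respond to DNA damage, stress, death receptors or loss of growth factors, and act by binding the anti-apoptotic proteins, the effectors or both. In mice, MCL1 and BCL2L1 are the anti-apoptotic proteins that hepatocytes are known to need.

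These 10 genes were taken by symbol from a deposited table of 22827 genes, and each symbol matched 1 Ensembl identifier. The table came from RNA sequencing of 3 libraries, USP39-KO, SIRT7-KO and control, from the liver cancer line Hep3B as the labels name it. USP39 is a spliceosome protein of the ubiquitin-specific protease family and SIRT7 is a nuclear NAD-dependent deacylase. The genotype field reads USP39-KO, SIRT7-KO or control, with no word on how the knockouts were made, whether a line is 1 clone, or which agent the control received. Each group had 1 library, so differences have no replicate check and come without tests or p-values. Intervals are exact 95% intervals of the ratio of read counts in 2 libraries, and they cover counting error only.

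In such bulk libraries, fewer expressing cells and less RNA per cell cannot be told apart. Counts summed to between 16151522 and 19427940 per library. USP39 had 1066 reads in USP39-KO against 1829 in control (0.688 times the control level), and SIRT7 had 608 reads in SIRT7-KO against 984 in control (0.736 times). The mitochondrial genome took 5.29% of counts in USP39-KO, 3.96% in SIRT7-KO and 4.85% in control, and its part in the differences below was not tested. Of 14 hepatocyte markers, 10 had under 10 reads in every library. ALB, AFP, TTR, APOA2, APOB, FOXA2 and GPC3 were at 0 in all 3, while the urea cycle enzyme CPS1 had 22163 reads in USP39-KO, 22378 in SIRT7-KO and 26607 in control. HNF4A, a hepatocyte transcription factor, had 29 reads in USP39-KO, 7 in SIRT7-KO and 113 in control, and the fibrinogen gene FGB had 1, 2 and 55. The part of these markers in the results was not tested. The summed level of the hepatocyte list was 1349.6 CPM (counts scaled to a common library size) in USP39-KO, 1372.7 CPM in SIRT7-KO and 1378.9 CPM in control, nearly all of it CPS1. Leukocyte markers summed to between 3.81 and 4.84 CPM and endothelial markers to between 1.03 and 1.29 CPM, with PTPRC, CD68 and KDR at 0. Fibroblast markers summed to 139.6, 114.5 and 118.2 CPM in USP39-KO, SIRT7-KO and control, most of it COL1A1, with COL1A2 at 0. Hep3B is known for making ALB and AFP, so their absence here goes against the labelled line, and the identity of the cells is in doubt. The labels are used below as given.

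What the 10 genes share beyond their names is a short stretch of coding sequence for the BH3 motif, the helix by which family members hold one another. Each was read from the principal coding transcript in GENCODE 29 (GRCh38), 60 bases long and 5′ to 3′. Capitals mark the 6 codons of the motif core, which open with leucine and end with a hydrophobic residue, a small residue and aspartate. They are shown because this shared region is what places the proteins in 1 family.
MCL1: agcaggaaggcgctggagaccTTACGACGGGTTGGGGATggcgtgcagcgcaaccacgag
BCL2L1: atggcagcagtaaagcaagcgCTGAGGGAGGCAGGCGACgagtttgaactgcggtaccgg
BCL2: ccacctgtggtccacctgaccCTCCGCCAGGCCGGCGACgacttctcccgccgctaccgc
BAX: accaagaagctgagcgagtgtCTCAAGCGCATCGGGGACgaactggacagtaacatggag
BAK1: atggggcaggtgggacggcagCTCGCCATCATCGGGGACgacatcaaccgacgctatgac
BBC3: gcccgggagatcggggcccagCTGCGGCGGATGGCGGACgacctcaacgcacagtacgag
PMAIP1: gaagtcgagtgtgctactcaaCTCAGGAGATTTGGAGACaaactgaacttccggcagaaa
BCL2L11: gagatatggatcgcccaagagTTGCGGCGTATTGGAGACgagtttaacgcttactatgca
BID: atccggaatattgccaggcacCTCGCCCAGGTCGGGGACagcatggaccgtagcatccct
BAD: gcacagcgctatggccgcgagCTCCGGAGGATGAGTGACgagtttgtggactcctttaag
A search of each coding sequence for that core gave 1 match per gene, in proteins of 54 residues (PMAIP1) to 350 (MCL1). The search was written for the motif that these genes are known to share, so a match in each is no finding. No rate of matches in other coding sequences was computed. The stretches shown lie at chr1:150578856-150578915 in exon 1 of MCL1 (minus strand), chr20:31721913-31721972 in exon 2 of BCL2L1 (minus strand), chr18:63318340-63318399 in exon 2 of BCL2 (minus strand) and chr19:48955766-48955825 in exon 3 of BAX (plus strand). That of BAK1 is at chr6:33575378-33575437 in exon 4 (minus strand) and that of BBC3 at chr19:47226570-47226629 in exon 3 (minus strand). PMAIP1 has it at chr18:59902652-59902711 in exon 2 (plus strand), BCL2L11 at chr2:111150082-111150141 in exon 4 (plus strand), BID at chr22:17739406-17739465 in exon 4 (minus strand) and BAD at chr11:64271613-64271672 in exon 3 (minus strand). Over the 45 pairs of genes the 60 bases were identical at 17 to 34 positions, with a median of 25, and the pair BAK1 and BID stood at the upper end. The 18 core bases alone were identical at 7 to 14 positions, and part of that identity is set by the search for the core itself. No level for unrelated sequences was computed.

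Levels were compared between genes on the deposited FPKM scale, which divides reads by gene length and by the library's total. The order of the 10 genes by FPKM was the same in all 3 libraries: MCL1, BCL2L1, PMAIP1, BAK1, BID, BAX, BCL2L11, BBC3, BAD and BCL2. Both this order and the FPKM shares below rest on the listed gene lengths. By reads alone, BID and BCL2L11 lay above PMAIP1 in every library. MCL1 alone made up 52.0% of the summed FPKM of the family in USP39-KO, 62.0% in SIRT7-KO and 51.6% in control. The other 9 genes together summed to 85.8 FPKM in USP39-KO, 85.7 FPKM in SIRT7-KO and 85.6 FPKM in control, so the family total of 178.7, 225.8 and 176.9 FPKM in the same libraries differed mainly by MCL1. Neighbours in the middle of that order were close. PMAIP1 and BAK1 had 17.7 and 16.0 FPKM in USP39-KO, and 16.0 and 15.1 FPKM in SIRT7-KO. In control they had 16.4 and 15.7 FPKM.

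**Figure D1:**
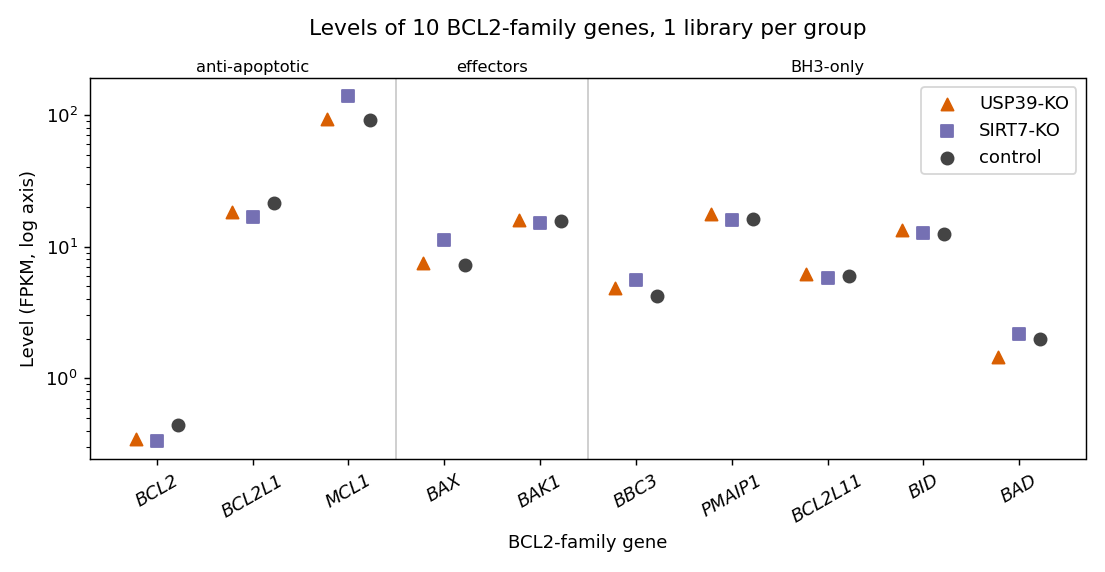
Level of each of the 10 BCL2-family genes in FPKM (log axis), with 1 point per library and genes grouped by role; there are no replicates and so no error bars. MCL1 is highest and BCL2 lowest in each library, and the SIRT7-KO points of MCL1 (140.0 FPKM) and BAX (11.2 FPKM) lie above the other 2 libraries.

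Among the anti-apoptotic genes, MCL1 was higher in SIRT7-KO, BCL2L1 was lower in both knockouts, and BCL2 was too sparse to place. MCL1, a short-lived protein that binds BAK1, BCL2L11, BBC3 and PMAIP1, had 6516 reads in USP39-KO, 9541 in SIRT7-KO and 7482 in control. On the FPKM scale these were 92.9, 140.0 and 91.3. SIRT7-KO was the high library and the other 2 lay close together. After normalisation by TMM (trimmed mean of M-values, which scales libraries by the bulk of genes), MCL1 in USP39-KO was at 1.03 times control (0.994 to 1.06) and in SIRT7-KO at 1.52 times (1.47 to 1.56). The share of genes tested that had a lower FPKM than MCL1 was 97.5% in USP39-KO, 98.6% in SIRT7-KO and 97.5% in control.

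BCL2L1, which restrains both BAX and BAK1, had 1014 reads in USP39-KO, 899 in SIRT7-KO and 1370 in control, or 18.4, 16.8 and 21.3 FPKM. Both knockout libraries lay below control. USP39-KO had 0.874 times the control level (0.805 to 0.948) and SIRT7-KO 0.781 times (0.717 to 0.850). Reads over the whole gene do not tell the long form of BCL2L1 from its short form, nor the full MCL1 message from the one that skips an exon, and each pair has opposite roles in apoptosis. BCL2, the founding member and a tumour gene of B-cell lymphoma, had 44 reads in USP39-KO, 41 in SIRT7-KO and 66 in control, or 0.345, 0.331 and 0.443 FPKM. Its intervals spanned equality in USP39-KO (0.787 times control, 0.525 to 1.17) and in SIRT7-KO (0.740 times control, 0.488 to 1.11), and a difference of that size was not detectable at this depth.

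Of the effectors, BAX was higher in SIRT7-KO and BAK1 stayed near its control level in both knockouts. BAX, which moves from the cytosol to mitochondria when activated, had 321 reads in USP39-KO, 470 in SIRT7-KO and 366 in control. These were 7.46, 11.2 and 7.28 FPKM, with SIRT7-KO above the other libraries. For BAX, USP39-KO had 1.04 times the control level (0.888 to 1.21) and SIRT7-KO 1.53 times (1.33 to 1.76). BAK1, which sits in the mitochondrial outer membrane already, had 604 reads in USP39-KO, 552 in SIRT7-KO and 690 in control. The levels were 16.0, 15.1 and 15.7 FPKM, and neither knockout was apart from control (1.03 times, 0.925 to 1.15, and 0.952 times, 0.850 to 1.07). BAX and BAK1 together summed to 23.5 FPKM in USP39-KO, 26.3 FPKM in SIRT7-KO and 22.9 FPKM in control.

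Among the BH3-only genes, BBC3 was higher in SIRT7-KO and the others were near their control level there. BBC3, which binds all the anti-apoptotic proteins named here, had 256 reads in USP39-KO, 284 in SIRT7-KO and 260 in control. Its levels were 4.84, 5.53 and 4.21 FPKM, both knockouts above control. USP39-KO had 1.16 times the control level (0.974 to 1.39, an interval that includes equality) and SIRT7-KO 1.30 times (1.10 to 1.54). PMAIP1, whose protein is known for binding MCL1, had 657 reads in USP39-KO, 578 in SIRT7-KO and 710 in control, or 17.7, 16.0 and 16.4 FPKM. It was at 1.09 times control in USP39-KO (0.981 to 1.22) and at 0.969 times in SIRT7-KO (0.867 to 1.08). Both intervals of PMAIP1 included equality.

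BCL2L11, which FOXO factors induce when growth factors are lost, had 690 reads in USP39-KO, 621 in SIRT7-KO and 780 in control. On the FPKM scale these were 6.23, 5.77 and 6.03, with fold values of 1.04 (0.941 to 1.16) in USP39-KO and 0.948 (0.852 to 1.05) in SIRT7-KO. BID, which caspase-8 cleaves to carry a death receptor signal to mitochondria, had 986 reads in USP39-KO, 913 in SIRT7-KO and 1064 in control. Its levels were 13.4, 12.8 and 12.4 FPKM, all close together. BID was at 1.09 times control in USP39-KO, where the interval of 1.002 to 1.19 lies next to equality, and at 1.02 times in SIRT7-KO (0.934 to 1.12). BAD, held inactive by phosphorylation and 14-3-3 proteins, had 41 reads in USP39-KO, 60 in SIRT7-KO and 66 in control, or 1.44, 2.17 and 1.99 FPKM. Both of its intervals spanned equality (0.733 times control, 0.484 to 1.10, in USP39-KO and 1.08 times, 0.750 to 1.56, in SIRT7-KO).

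The placement of reads limits some of these values. BAD lies almost wholly across GPR137 on the opposite strand, which had 795 reads in USP39-KO, 687 in SIRT7-KO and 989 in control. No source used here says whether the counting used strand. The overlap was read from whole gene spans with introns, so how many reads BAD and GPR137 could share was not determined. BCL2L11 and BCL2L1 are overlapped by the antisense transcripts MIR4435-2HG and AL117381.1, which are absent from the deposited genes. BAK1 is overlapped on the opposite strand by GGNBP1, which had 2 reads in USP39-KO, 0 in SIRT7-KO and 0 in control. BAK1 also has 2 processed pseudogenes in GENCODE 29 that are absent from the deposited genes.

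**Figure D2:**
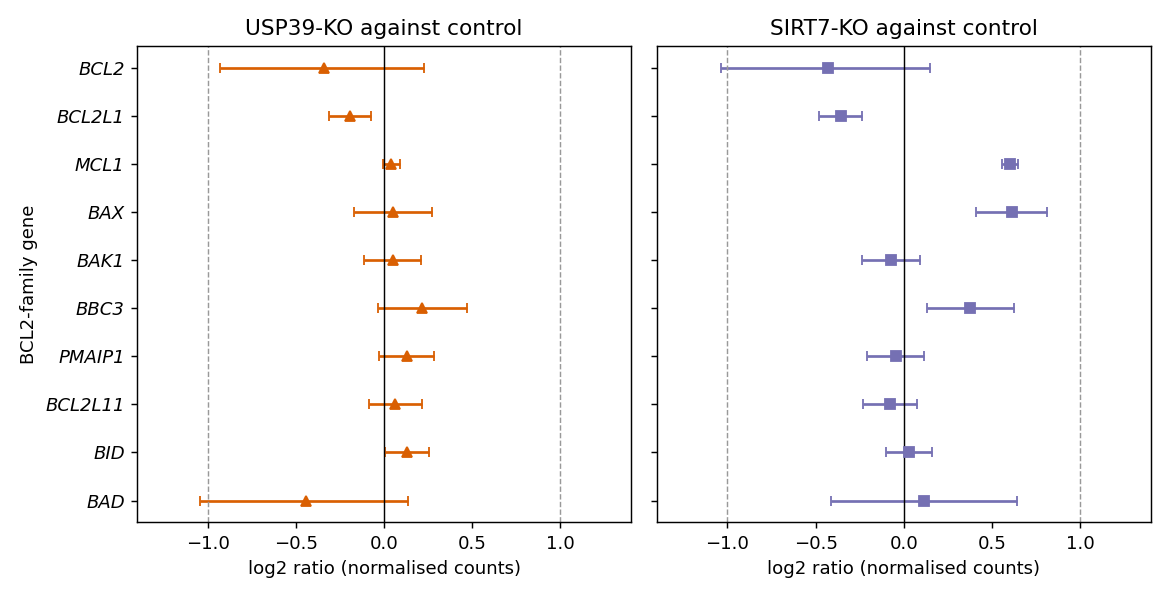
Log2 ratio of each BCL2-family gene in USP39-KO (left) and SIRT7-KO (right) against control, from TMM-normalised counts of 1 library each; bars are exact 95% counting intervals and dashed lines mark a 2-fold difference. In SIRT7-KO the bars of MCL1, BAX and BBC3 lie above 0 and that of BCL2L1 below, and no point reaches a dashed line.

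A gene passed the 2-fold rule when it differed by that much and its interval left out equality. None of the 10 members passed in USP39-KO against control, where 4.86% of the 12726 genes tested (at least 10 reads in 1 or more libraries) did, 1.49% higher and 3.37% lower. None passed in SIRT7-KO against control, where 7.06% of genes did, 3.02% higher and 4.05% lower. None passed in USP39-KO against SIRT7-KO, where 8.54% did, 3.51% higher and 5.03% lower. All 10 members had enough reads to be tested. These shares depend on depth. Of the 10181 genes with at least 100 reads in 1 or more libraries, fewer passed: 174, 346 and 502 in the same order of comparisons. All members but BCL2 and BAD reached 100 reads.

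When only the interval had to leave out equality, 2 of 10 members did so in USP39-KO against control, against 44.4% of all genes. BID was the 1 higher member (22% of genes were higher) and BCL2L1 the 1 lower (22.5% were lower). BID was no longer among them under 3 of 4 other scalings, which left 1 member. In SIRT7-KO against control 4 of 10 did so, against 56.1% of all genes. These were MCL1, BAX and BBC3, higher (27.3% of genes), and BCL2L1, lower (28.8%), and the same 4 under all 4 other scalings. With both directions counted together, the members' shares were below those of all genes in each knockout, and the 3 of 10 higher in SIRT7-KO lay near the share of all genes that were higher. The median log2 ratio of the members was 0.05 in USP39-KO and -0.01 in SIRT7-KO against control, and over all genes tested it was -0.00 and -0.01. In USP39-KO 7 members lay above 0 and 3 below, and in SIRT7-KO 5 lay on each side. Of all genes tested, 49.6% lay above 0 in USP39-KO and 48.7% in SIRT7-KO. Of the 7 members, BID alone had an interval that left out equality.

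At a size of 1.5-fold with the interval leaving out equality, the 2 members MCL1 and BAX passed in SIRT7-KO against control, both higher. Of all genes 15% passed there, 7.21% higher and 7.83% lower. None passed in USP39-KO against control, where 9.59% of genes did, 3.19% higher and 6.4% lower, and none in USP39-KO against SIRT7-KO, where 18.2% did, 7.91% higher and 10.3% lower. The 2 knockouts shared their control library, and the values above are given side by side for that reason. Set directly against SIRT7-KO, USP39-KO had 0.677 times the level of MCL1 (0.656 to 0.699) and 0.677 times that of BAX (0.586 to 0.782). PMAIP1 was at 1.13 times (1.01 to 1.26) and BCL2L1 at 1.12 times (1.02 to 1.22) in USP39-KO against SIRT7-KO. With the interval alone, these 4 of 10 members left out equality against 59.1% of all genes, 2 higher (29.8% of genes) and 2 lower (29.2%). PMAIP1 dropped out under 2 of 4 other scalings. The median of the members in this comparison was 0.09, with 6 above 0 and 4 below, and that of all genes 0.00, with 50.4% above 0.

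**Figure D3:**
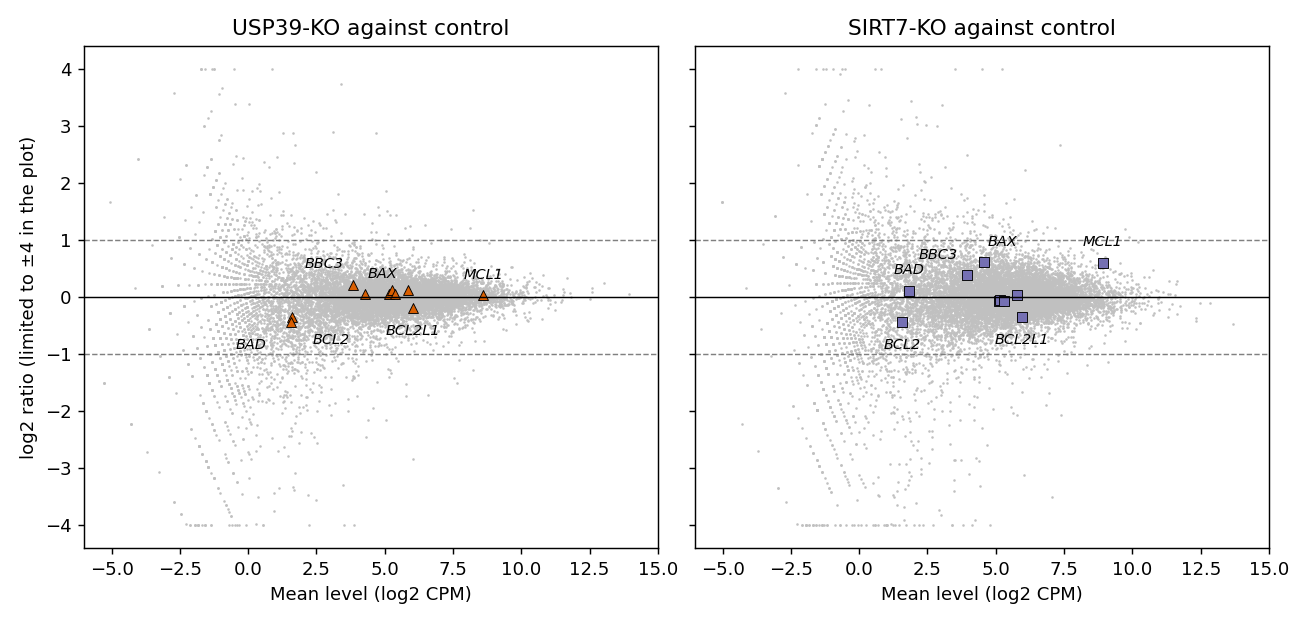
Log2 ratio against mean level (log2 CPM) of all genes with at least 10 reads in 1 or more libraries (grey) and of the 10 BCL2-family genes (coloured), for USP39-KO (left) and SIRT7-KO (right) against control; ratios beyond 4 are drawn at 4 and dashed lines mark a 2-fold difference. BCL2 and BAD, with 41 to 66 reads per library, lie in the wide part of the grey cloud, and MCL1 lies at its narrow end.

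Ratios of 2 members within a library do not depend on how libraries are scaled, and were read for pairs of proteins known to bind. The ratio of BAX to BCL2L1 on the FPKM scale was 0.406 in USP39-KO, 0.670 in SIRT7-KO and 0.342 in control. It was 1.18 times the control ratio in USP39-KO (0.995 to 1.41) and 1.96 times in SIRT7-KO (1.66 to 2.31). BAX to BCL2 was 21.6 in USP39-KO, 34.0 in SIRT7-KO and 16.4 in control, which is 1.32 times control (0.857 to 2.03) and 2.07 times control (1.34 to 3.21). BBC3 to BCL2L1 was 0.263 in USP39-KO, 0.329 in SIRT7-KO and 0.198 in control, or 1.33 times control (1.09 to 1.62) and 1.66 times control (1.37 to 2.02). Each of these 3 ratios of a pro-apoptotic to an anti-apoptotic gene had its highest value in SIRT7-KO. They reuse BAX and BCL2L1 and so are not separate observations. For BAX to BCL2, USP39-KO was at 0.636 times SIRT7-KO (0.396 to 1.02), an interval that includes equality.

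The ratios of PMAIP1 and BCL2L11 to MCL1 went the other way in SIRT7-KO, where PMAIP1 and BCL2L11 themselves lay near control. BAX, BBC3 and BAK1 were not set against MCL1. In SIRT7-KO, BAX (1.53 times control) and MCL1 (1.52 times) were higher by nearly the same factor, so the direction depends on the pairs chosen. PMAIP1 to MCL1 was 0.190 in USP39-KO, 0.114 in SIRT7-KO and 0.179 in control, which is 1.06 times control (0.949 to 1.19) and 0.638 times control (0.569 to 0.717). BCL2L11 to MCL1 was 0.0671 in USP39-KO, 0.0412 in SIRT7-KO and 0.0660 in control, or 1.02 times control (0.911 to 1.13) and 0.624 times control (0.559 to 0.698). By role, anti-apoptotic genes held 62.5% of the family's summed FPKM in USP39-KO, 69.6% in SIRT7-KO and 63.9% in control. BH3-only genes held 24.4%, 18.7% and 23.2% in the same order of libraries, and effectors 13.1%, 11.7% and 13.0%. BCL2 and BCL2L1 without MCL1 summed to 18.7 FPKM in USP39-KO, 17.1 FPKM in SIRT7-KO and 21.7 FPKM in control. The direction of the anti-apoptotic share in SIRT7-KO therefore rested on MCL1.

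Promoters were read because BAX and BBC3 were both higher in SIRT7-KO. RefSeq (GRCh38.p14) gave windows for 9 of the 10 members, 15 windows in all, and none was at hand for MCL1. The 250 bases before the annotated start are shown for BAX (chr19:48954625-48954874, plus strand) and BBC3 (chr19:47232668-47232917, minus strand), 5′ to 3′. Capitals mark CACGTG, the E-box bound by MYC, USF and related factors.
BAX: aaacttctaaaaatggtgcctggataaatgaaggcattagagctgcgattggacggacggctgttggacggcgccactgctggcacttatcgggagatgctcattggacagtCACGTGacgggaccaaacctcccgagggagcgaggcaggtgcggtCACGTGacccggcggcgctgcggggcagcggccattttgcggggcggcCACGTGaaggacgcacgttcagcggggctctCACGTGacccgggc
BBC3: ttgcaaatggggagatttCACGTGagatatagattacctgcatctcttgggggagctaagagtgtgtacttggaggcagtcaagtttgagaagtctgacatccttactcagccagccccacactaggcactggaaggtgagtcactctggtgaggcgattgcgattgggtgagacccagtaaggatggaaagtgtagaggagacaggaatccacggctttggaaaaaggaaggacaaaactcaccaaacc
BAX held 4 copies of CACGTG, starting 138, 93, 45 and 14 bases before the start, and BBC3 held 1, starting 232 bases before it. BID had 1 in 2 of its 5 windows, which overlap and hold the same copy, and the other 6 members had none. Over 35116 promoter windows of the same length, 6.34% held at least 1 copy (the motif reads the same on both strands) and 5 windows held at least 4. MYC itself had 8364 reads in USP39-KO, 7894 in SIRT7-KO and 11109 in control, a log2 ratio of -0.17 and -0.24 against control. A part of MYC, USF or related factors in the levels of BAX and BBC3 was not tested. TGACGT, part of the site of CREB and ATF factors, was searched on both strands and matched once in the PMAIP1 window and once in each of the 2 BAD windows, against 7.10% of all windows. The 2 BAD windows overlap and their match is the same site. CCAAT, searched on both strands, had 2 matches in the BAX window and 1 in that of BBC3, and 32.0% of all windows held it. GGGCGG, searched likewise, had 1 match in the BAX window and 0 in that of BBC3, against 42.6% of all windows. A match describes letters in this window and not binding.

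Beyond the 10 genes, BCL2L2 (BCL-W), a further anti-apoptotic gene and the 1 measured of its list of 3, had 406 reads in USP39-KO, 245 in SIRT7-KO and 484 in control, with log2 ratios of -0.01 and -0.73 (-0.96 to -0.51). BCL2L10 had 4 reads or fewer in each library, and BCL2A1 had none, which allows up to 0.182 CPM in USP39-KO, 0.184 CPM in SIRT7-KO and 0.154 CPM in control. Of the 4 further BH3-only and effector genes, HRK, a neuronal BH3-only gene, was lower by the 2-fold rule in SIRT7-KO, with 38 reads against 113 in control (0.400 times, 0.270 to 0.583). In USP39-KO it had 80 reads (0.836 times control, 0.620 to 1.12). BOK, a BAX-like gene and the most abundant of the 4, was at log2 ratios of -0.28 in USP39-KO and -0.38 in SIRT7-KO.

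Of 9 measured genes with more distant BCL2 homology or named for BCL2 binding, 1 was lower by the rule in each knockout and none higher. That gene was BCL2L15, with 1 read in USP39-KO, 0 in SIRT7-KO and 24 in control. It was at least 6.72-fold lower in SIRT7-KO against a floor of 3 counts in that library, a bound that leaves out the counting error of the control reads, and the exact interval reached up to 0.198 times control. It was at 0.0492 times control in USP39-KO (0.00120 to 0.302). BNIP3, a mitophagy receptor, had log2 ratios of -0.18 in USP39-KO and 0.43 in SIRT7-KO. BCL2L13, another mitochondrial receptor of autophagy, had 0.27 and 0.29.

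Downstream of the mitochondrial pore, none of the 7 apoptosome and caspase genes passed the 2-fold rule against control. CASP9, the initiator caspase that the apoptosome activates, had 5561 reads in USP39-KO, 2303 in SIRT7-KO and 4570 in control. The USP39-KO library was high and the SIRT7-KO library low, with log2 ratios of 0.52 (0.47 to 0.58) and -0.74 (-0.81 to -0.66) against control. USP39-KO was 2.39-fold above SIRT7-KO (2.28 to 2.51). CYCS, cytochrome c itself, differed little, with log2 ratios of 0.03 and 0.05. Among 8 genes of the intermembrane space and the VDAC channels none passed the rule against control. VDAC1, the most abundant, had log2 ratios of -0.09 in USP39-KO and -0.06 in SIRT7-KO. VDAC2, known to hold BAK1 and BAX at the membrane, had 0.37 in USP39-KO and 0.02 in SIRT7-KO, and the nuclease ENDOG had -0.18 and -0.74. Of 6 inhibitors of apoptosis BIRC3 was lower by the rule in SIRT7-KO (392 reads against 1194 in control, log2 ratio -1.35), and had -0.47 in USP39-KO, while BIRC2 had 0.37 in USP39-KO and 0.00 in SIRT7-KO.

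Upstream, FAS, a death receptor, was the 1 gene of 9 in the death receptor list past the rule, with 412 reads in SIRT7-KO against 188 in control (2.61-fold, 2.19 to 3.12) and 128 in USP39-KO. TNFRSF10B, the most abundant of the list, had log2 ratios of 0.06 and 0.11. Of 15 regulators known to act on BCL2-family genes, JUN was higher in SIRT7-KO (897 reads against 411, log2 ratio 1.38) and TP73 lower (83 reads against 210, -1.08). TP73 was on the other side in USP39-KO, with 312 reads and a log2 ratio of 0.81 (0.55 to 1.07). JUN had -0.51 there.

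Among 11 measured genes that act on the stability of MCL1 or BH3-only proteins, TRIM17, a ubiquitin ligase, was lower by the rule in USP39-KO on 12 reads against 31 in control (log2 ratio -1.10, -2.23 to -0.13) and none passed in SIRT7-KO. CDK9, the kinase on which transcription of short-lived messages such as MCL1 depends, had -0.27 in USP39-KO and 0.20 in SIRT7-KO. BTRC, part of a ubiquitin ligase, had 0.32 and -0.35. DUSP6, a phosphatase of ERK, had 22 reads in USP39-KO, 66 in SIRT7-KO and 44 in control, and passed the rule as lower in USP39-KO against SIRT7-KO (0.331 times, 0.194 to 0.543). TRIM17 did so too (0.441 times, 0.203 to 0.900). In the related lists above, HRK, TP73 and CASP9 passed as higher in that comparison, and FAS and JUN as lower. None of 13 measured kinases, phosphatases and 14-3-3 genes that act on BAD passed the rule. PPP3CA, a calcineurin subunit, was farthest from control, with -0.30 in USP39-KO and 0.59 in SIRT7-KO, and the abundant YWHAE had -0.06 and -0.01.

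**Figure D4:**
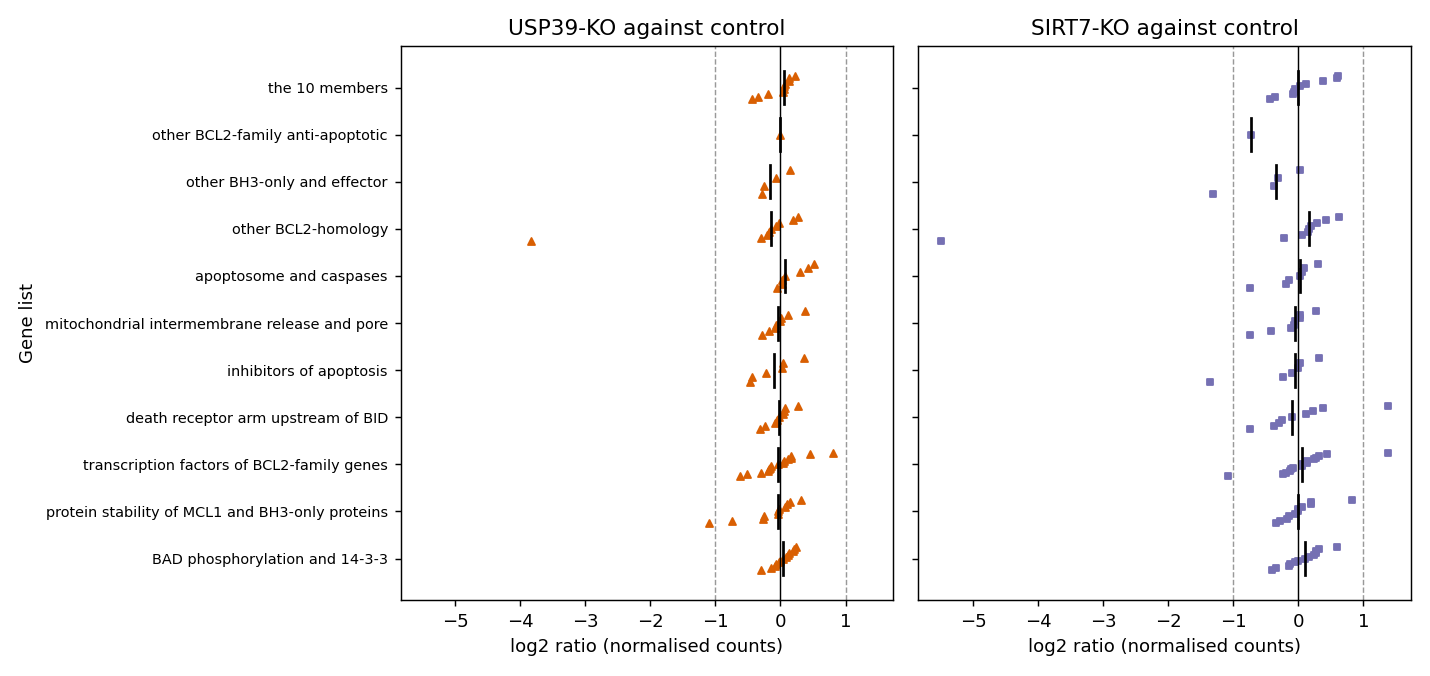
Log2 ratio of the 10 BCL2-family genes (top row) and of measured genes in 10 related lists, for USP39-KO (left) and SIRT7-KO (right) against control; each point is 1 gene, black bars are list medians and dashed lines mark a 2-fold difference. The members have a median of 0.05 in USP39-KO and -0.01 in SIRT7-KO, and the point at the far left of both panels is BCL2L15.

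BAX was the member farthest from control in either knockout, with a log2 ratio of 0.61 in SIRT7-KO (0.41 to 0.81). MCL1, at 0.60, lay inside that interval. The 5 genes with the nearest pair of log2 ratios, among 10180 genes with at least 100 reads in 1 or more libraries, were GSN, ZNF267, MCL1, UAP1 and SIX4. Their Euclidean distances from BAX were 0.01 to 0.02 on the log2 scale. These are far smaller than the counting interval of BAX, so which 5 genes are nearest is within counting error. In all, 87 genes (0.855%) lay within 0.1 of BAX, over 2 ratios from 3 libraries that share 1 control.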

How the data were processed

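RNA was taken up in Trizol and a TruSeq kit used for library preparation, per the labels' protocols. The authors deposited 1 table of read counts per gene, each gene with its length and a column of FPKM per library, as named in the headers. No source used here gives the aligner, counter, build or annotation. The deposited FPKM equal the counts scaled by listed length and library total, for every gene with reads, within a relative tolerance of 1e-06. They were used for levels between genes, and counts for comparisons between libraries.

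Gene names came by Ensembl identifier from a table of gene names (19581 of 22827 identifiers) and GENCODE 29. TMM factors from edgeR 4.0.16 were 0.990, 1.01 and 1.00 for USP39-KO, SIRT7-KO and control. Before logs were taken, 0.5 counts, weighted by library size, were added. Intervals were exact conditional binomial (Clopper-Pearson) intervals at 95%, and ratios of 2 members had exact conditional odds-ratio intervals (SciPy 1.17.1). Without molecular identifiers, reads may repeat a molecule, so the intervals hold counting error alone. The floor for a count of 0 was 3 counts. The steps were tested on simulated counts.

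The members, gene lists and naming rule were chosen with earlier results of these data known. Named were all members, USP39, SIRT7 and, of each list reported, every gene past the rule, the most abundant gene and the gene farthest from control with at least 100 reads. Genes of marker lists are summarised, and 1 gene list, with genes past the rule in SIRT7-KO, and 1 of 5 promoter motifs are not reported here. BCL2L10, BCL2A1, GPR137 and marker genes at 0 were named after their values were seen. Alternatives were other scalings (DESeq2 1.42.0 size factors, upper-quartile factors, library totals, totals without the mitochondrial genome), other filters, a 1.5-fold rule and a prior of 2 counts.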

Additional observations from a re-analysis of the deposited data

How the results depend on the processing

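Under 4 other scalings and a prior of 2 counts, all 30 log2 ratios of the members (10 genes in 3 comparisons) kept their sign and stayed inside their counting intervals. No member passed the 2-fold rule under any scaling or filter. With a 1.5-fold rule 2 members passed in SIRT7-KO against control, and all genes called numbered 1220 in USP39-KO against control, 1914 in SIRT7-KO against control and 2322 in USP39-KO against SIRT7-KO, in place of 618, 899 and 1087. Asking for 100 counts in any library, they numbered 174, 346 and 502 in the same comparisons, with 10181 genes tested in place of 12726. Most of the genes called in each comparison thus had fewer than 100 counts in every library. The number of members whose interval left out equality was 1 in USP39-KO against control, in place of 2, with library totals, upper-quartile factors or totals without the mitochondrial genome, an alternative chosen after seeing the data. Ratios of 2 members within a library gave the same folds from raw counts. Gene length cancels in these folds, so this comparison could not come out otherwise and is no check. No paired analysis was possible because each group had 1 library, and no library could be left out for the same reason. BCL2 and BAD, with 41 to 66 reads per library, are limited by depth. The other 8 members had 256 reads or more in each library.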
